A study of Mus musculus with 4 samples.

Results

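MHC class I antigen presentation was followed through 10 genes in bulk liver tumours: B2m, H2-K1 and H2-D1 for the class I chains, Tap1, Tap2 and Tapbp for peptide transport and loading, Psmb8, Psmb9 and Psmb10 for the immunoproteasome, and the transactivator Nlrc5. They are the rows of the deposited count table, among 55487 genes, whose Ensembl identifiers carry these symbols in GENCODE M21, and all 10 passed the filter on low counts. Messenger RNA was sequenced from hepatocellular carcinoma tissue of 4 mice in a spontaneous liver cancer model driven by c-Myc, which the series title names as Alb-cre H11-myc without giving the alleles of each mouse. The labels give 2 mice as wild type and 2 as liver-specific Tfrc knockouts, so each replicate is a separate animal. Tfrc encodes transferrin receptor 1, and the study asked how it acts on the tumour microenvironment. The Alb promoter drives Cre in hepatocytes, so stromal and immune cells of a knockout tumour are not targeted by it. Strain, age and sex of the mice, the deleted exons, and whether the wild type mice carried the Cre are not stated in the labels.

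Class I molecules show fragments of a cell's own proteins to CD8 T cells. The proteasome cuts the proteins, the TAP transporter moves the fragments into the endoplasmic reticulum, and tapasin helps load them on a heavy chain paired with beta-2-microglobulin. Interferon raises the whole set and swaps the catalytic subunits of the proteasome for their immune forms, and Nlrc5 acts with the RFX, CREB and NF-Y factors on a shared promoter module. Healthy hepatocytes carry little class I at rest, and resident macrophages, endothelial cells and lymphocytes carry more.

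Upstream sequences of a light chain gene and a heavy chain gene of class I are shown because the chain genes share an order of promoter letters. Windows of 250 bases before the RefSeq start (build GRCm38.p6) were matched by symbol for 8 of the 10 members, not for Tap2 and Nlrc5. Capitals mark matches on either strand to GGGA and CC with 4 bases between (the NF-kappa B site), TGACG (the core of a cyclic AMP response element, as in the X2 box), CCAAT (the Y box), GAAA repeated after 2 bases (an interferon-stimulated response element) and TTCNNNGAA (a gamma-activated site). Of 2 starts listed for H2-K1 the upstream one is shown. The windows of H2-D1, Tap1, Psmb9, Tapbp and Psmb8, and the stretch between Tap1 and Psmb9, lie wholly in annotated exons of GENCODE M21. That of Psmb10 does so for 52 of its 250 bases. For these only the matches, where present, are given. Adjacent capitals can belong to overlapping matches of 1 motif on opposite strands.
B2m, chr2:122147437-122147686, plus strand: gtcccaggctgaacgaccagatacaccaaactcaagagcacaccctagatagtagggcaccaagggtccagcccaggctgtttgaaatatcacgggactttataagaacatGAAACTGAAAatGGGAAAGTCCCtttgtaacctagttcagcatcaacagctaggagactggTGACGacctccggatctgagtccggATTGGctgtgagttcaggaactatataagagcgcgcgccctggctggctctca
H2-K1, chr17:34000348-34000597, minus strand: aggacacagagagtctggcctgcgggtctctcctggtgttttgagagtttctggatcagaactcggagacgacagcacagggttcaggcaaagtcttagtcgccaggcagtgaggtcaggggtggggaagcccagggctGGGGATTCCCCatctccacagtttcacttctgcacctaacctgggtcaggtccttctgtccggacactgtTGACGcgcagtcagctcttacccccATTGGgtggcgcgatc
All 3 chain genes held, in the same order, the NF-kappa B letters, TGACG and ATTGG, which is CCAAT on the other strand. From the first base of TGACG to that of ATTGG there were 25 bases in each of the 3. From the NF-kappa B match to TGACG there were, counted in the same way, 70 in H2-K1 and H2-D1, and 49 in B2m. Only B2m among the 8 members held the repeated GAAA in exactly these letters, 139 to 130 bases before its start, and only Psmb8 held TTCNNNGAA. Variant forms of a site were not sought, so a missing match does not show that a gene lacks the element. CCAAT was in 6 of the 8, TGACG in 5 and the NF-kappa B letters in 3. The CCAAT and TGACG matches of Tap1 and Psmb9 are the same bases, read from opposite strands, so these counts hold them for both genes. Of 32851 promoters in the table, 33.8% held CCAAT, 17.8% TGACG, 17.6% the NF-kappa B letters, 7.02% TTCNNNGAA and 2.98% the repeated GAAA in the same window. The starts of Psmb9 and Tap1 were separated by 225 bases, with the genes on opposite strands. In that stretch lay CCAAT near the Psmb9 start and TGACG, with 81 bases between it and the Tap1 start. A match describes letters only and shows no bound factor.

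None of the 10 class I genes differed detectably by genotype label. Values below are CPM, counts scaled to the size of each library with edgeR's TMM factors, and fold changes are knockout against wild type. By edgeR's quasi-likelihood test 0 of 10 members passed an adjusted p of 0.05, and among all 16310 genes tested 0% passed as higher and 0% as lower. At an unadjusted p under 0.05 there were 0 members, against 1353 genes or 8.3% of those tested. DESeq2 called 0 members, against 0.907% of the genes, and limma-voom called 0 members and 1 gene in all. Of the members, 5 had a log2 fold change above 0 and 5 below, with a median of -0.019, beside 50.4% above, 49.6% below and a median of 0.0054 over all tested genes. Without knockout replicate 1 the median of the members was -0.24. Groups did not overlap for 3 of the 10 members, Tap1 upward and H2-D1 and Tapbp downward, while 42% of all genes did not overlap. For 9 of the 10 members, H2-D1 being the exception, the larger gap between animals of 1 group exceeded the fitted difference between groups on the log2 scale. This also held for 72.2% of all genes.

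**Figure D1:**
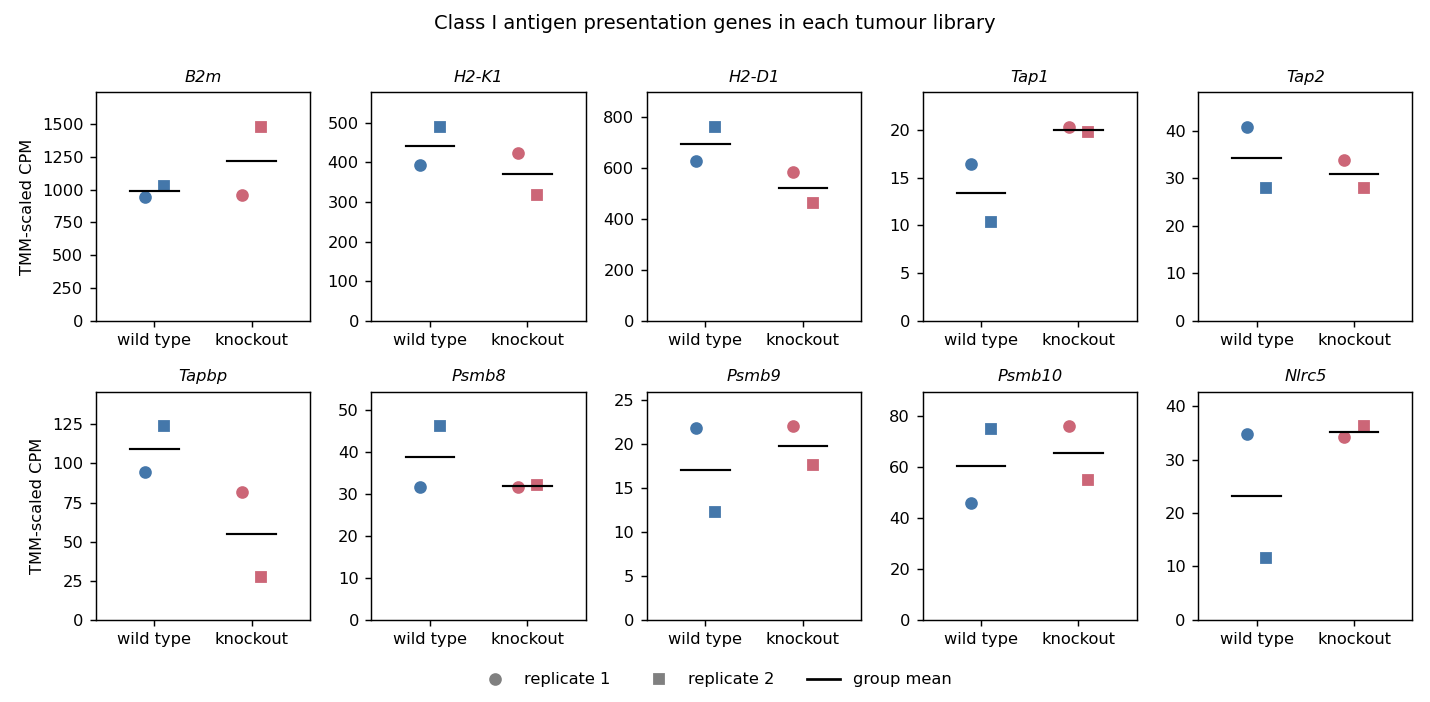
Each panel plots 1 gene in TMM-scaled CPM from 0 for the 2 wild type and 2 knockout libraries, with circles for replicate 1, squares for replicate 2 and a line at the group mean. Nlrc5 is low in wild type replicate 2 (11.6 CPM) and Tapbp in knockout replicate 2 (27.6 CPM), while B2m is high in knockout replicate 2 (1476 CPM).

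Some facts of the libraries bear on every value. Total counts were 15918349 to 17052943 per library. Tfrc, counted over the whole gene, was 460 and 234 CPM in wild type and 334 and 205 CPM in knockout replicates 1 and 2. The groups overlapped, so Tfrc did not check the labels, and "knockout" means the library labelled so. The mitochondrial genome supplied 8.69% and 4.13% of all counts for the wild type pair and 9.8% and 16.6% for the knockout pair. Hepatocyte markers (Alb, Apoa1, Apoa2, Ttr, Fgb, Serpina1a and Hnf4a) were present in all libraries, with a summed level of 13409 CPM in wild type replicate 1 and 32395 to 46917 CPM in the others. The smallest two-sided p of an exact permutation test at this size is 0.333, and single genes were therefore tested in the model across genes. In bulk tissue, fewer cells of a type and less RNA per cell cannot be told apart.

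The class I chains were the most abundant of the set, and their order was the same in every library. B2m encodes beta-2-microglobulin, the light chain of every classical class I molecule and also the partner of the iron regulator HFE and the antibody receptor FcRn. The gene (ENSMUSG00000060802, mm10 chromosome 2, 122147686 to 122153083) had 942 and 1030.4 CPM in wild type replicates 1 and 2, and 956 and 1476 CPM in knockout replicates 1 and 2. Knockout replicate 2 stood 1.43-fold above the highest other library, and the other 3 lay close together. Its log2 fold change of 0.30 (SE 0.44, adjusted p = 0.859 by edgeR) had a 95% interval of -0.73 to 1.33 and turned to -0.044 without knockout replicate 2.

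H2-K1 and H2-D1 encode the classical heavy chains that bind peptide and face the T cell receptor. H2-K1 (ENSMUSG00000061232, chromosome 17, 33996017 to 34000347) had 394 and 489 CPM in wild type and 424 and 318 CPM in knockout. Knockout replicate 1 fell between the wild type libraries and replicate 2 below them. Its log2 fold change was -0.25 (SE 0.36, edgeR adjusted p = 0.86). H2-D1 (ENSMUSG00000073411, chromosome 17, 35262730 to 35267499) had 626 and 758 CPM in wild type and 582 and 461 CPM in knockout. Both knockout libraries lay below both wild type libraries, replicate 1 by a small margin. The log2 fold change of -0.41 (SE 0.38, adjusted p = 0.773 by edgeR) had a 95% interval of -1.30 to 0.49. The library with the most B2m thus had the least H2-K1 and H2-D1.

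Heavy chain genes resemble each other, which limits how their reads can be assigned. Of all 50-base windows in H2-K1 transcripts, 9.63% also occurred in transcripts of another gene, mostly H2-Q10, H2-D1 and H2-Q7. In H2-D1 the share was 12.8%, mostly H2-Q1, H2-K1 and H2-Q7, and in B2m it was 0%. Tapbp had 23.2%, Psmb8 11.9% and Tap2 11.6%, mostly shared with the overlapping opposite-strand genes Gm19412, Gm20496 and Gm15821 in turn. Heavy chain genes also differ between mouse strains. The labels do not say how reads with several matches were counted, which leaves the split between heavy chains uncertain.

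Peptide transport genes differed between groups by less than animals of 1 group did, and the tapasin gene varied most of all members between the knockout animals. Tap1 and Tap2 encode the 2 subunits of the peptide transporter. Tap1 (ENSMUSG00000037321, chromosome 17, 34187553 to 34197225) had 16.4 and 10.4 CPM in wild type and 20.3 and 19.8 CPM in knockout. Both knockout libraries were higher than both wild type libraries, and wild type replicate 2 was lowest. The log2 fold change of 0.58 (SE 0.38, adjusted p = 0.683 by edgeR) had a 95% interval of -0.31 to 1.47. Tap2 (ENSMUSG00000024339, chromosome 17, 34203527 to 34216321) had 40.7 and 27.9 CPM in wild type and 33.7 and 27.9 CPM in knockout, so the groups overlapped. Its log2 fold change was -0.15 (SE 0.33, edgeR adjusted p = 0.911).

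Tapbp encodes tapasin, which holds empty class I chains at the transporter. The gene (ENSMUSG00000024308, chromosome 17, 33915899 to 33929292) had 94.4 and 124 CPM in wild type and 81.8 and 27.6 CPM in knockout. Knockout replicate 2 was 2.96-fold below the lowest other library, a gap wider than nearly all genes showed between the knockout animals (4.5% had a larger one). The log2 fold change of -0.99 (SE 0.51, adjusted p = 0.634 by edgeR) had a 95% interval of -2.20 to 0.21 and was -0.41 without knockout replicate 2. Without knockout replicate 1 it was -2.01, also short of the threshold. Tapbp shares 149 exonic bases with Zbtb22 on the same strand and 904 with the antisense gene Gm19412. Gm19412 had only 10 to 23 counts per library, against 438 to 1903 for Tapbp, and Zbtb22 had 200 to 474. How many reads these genes share was not tested.

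Immunoproteasome subunits overlapped between groups in all 3 cases. These subunits replace the constitutive catalytic ones after interferon exposure and favour fragments that fit class I grooves. Psmb8 (ENSMUSG00000024338, chromosome 17, 34197721 to 34201454) had 31.6 and 46.1 CPM in wild type and 31.7 and 32.2 CPM in knockout. Only wild type replicate 2 stood out, above the rest, and the log2 fold change was -0.28 (SE 0.32, edgeR adjusted p = 0.82). Psmb9 (ENSMUSG00000096727, chromosome 17, 34181987 to 34187764) had 21.8 and 12.3 CPM in wild type and 22 and 17.7 CPM in knockout. Here wild type replicate 2 was the lowest library, and the log2 fold change was 0.22 (SE 0.40, edgeR adjusted p = 0.889). Psmb10 (ENSMUSG00000031897, chromosome 8, 105935735 to 105938444) had 45.7 and 75.1 CPM in wild type and 75.9 and 55.1 CPM in knockout. The lowest and the next to highest value were both wild type, and the log2 fold change was 0.12 (SE 0.36, edgeR adjusted p = 0.941).

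Psmb9, Tap1, Psmb8 and Tap2 lie side by side within 34335 bases of chromosome 17, yet did not share 1 pattern. Psmb9, Tap1 and Tap2 were lowest in wild type replicate 2, Tap2 at the same rounded level as in knockout replicate 2. Psmb8, which lies between Tap1 and Tap2, was highest in that library. Tap1 and Psmb9 overlap by 212 exonic bases on opposite strands, so a small part of their reads cannot be assigned if strand was ignored.

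Nlrc5 was the member with the widest spread among wild type animals. It encodes the transactivator of class I genes, a counterpart of the class II transactivator Ciita. The gene (ENSMUSG00000074151, chromosome 8, 94434356 to 94527272) had 34.9 and 11.6 CPM in wild type and 34.2 and 36.2 CPM in knockout. Wild type replicate 2 was 2.94-fold below the lowest other library, and the other 3 were nearly level. The log2 fold change of 0.60 (SE 0.51, adjusted p = 0.754 by edgeR) had a 95% interval of -0.61 to 1.81. Leaving out wild type replicate 2 gave 0.015, and leaving out replicate 1 of that group gave 1.56 (adjusted p = 0.0546 by edgeR). In the library with the least Nlrc5, H2-K1 and H2-D1 had their highest levels, 489 and 758 CPM, as did Tapbp and Psmb8. Tap1, Tap2 and Psmb9 had their lowest levels in that library.

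**Figure D2:**
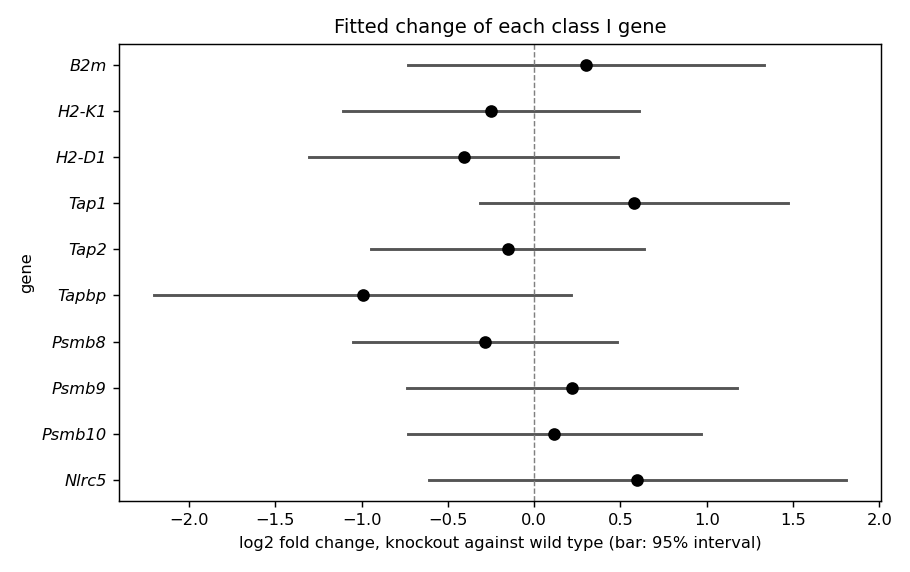
Points are log2 fold changes, knockout against wild type, of the 10 genes from edgeR's model, and bars are 95% intervals. All 10 intervals hold 0, and they run from -2.20 for Tapbp to 1.81 for Nlrc5.

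The intervals show what size of difference these libraries could have hidden. For B2m, Psmb9, Nlrc5 and Tap1 the 95% interval reached at least 2-fold higher in knockout, and for H2-K1, H2-D1, Tapbp and Psmb8 it reached at least 2-fold lower. Those of Tap2 (0.52 to 1.56-fold) and Psmb10 (0.60 to 1.95-fold) held neither.

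Levels of different genes were compared as CPM per kilobase of the union of annotated exons. B2m stood highest at 1281 ± 294 (SD, n = 4 libraries), then H2-D1 at 235 ± 47.6 and H2-K1 at 138 ± 24.1, and the ranges of these 3 did not overlap. Psmb10 followed at 36.9 ± 8.79, Tapbp at 22.6 ± 11.1, Psmb8 at 10.5 ± 2.12 and Tap2 at 8.61 ± 1.61, each range overlapping the next. Psmb9 at 5.04 ± 1.25, Nlrc5 at 3.44 ± 1.38 and Tap1 at 3.05 ± 0.833 were lowest, and their ranges overlapped in turn. The chains that reach the cell surface thus lay far above the transporter, proteasome and regulator genes. The secreted class I gene H2-Q10, a liver product chosen here after its values were seen, had 190 to 347 on the same scale, overlapping the range of H2-D1.

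Ratios within a library do not depend on the scaling between libraries. They are given as counts per kilobase of exon of the first gene over the second, with no test. The groups did not overlap for 6 of the 8 ratios computed, 4 of them higher and 2 lower in knockout. For all pairs of tested genes without a count of 0 the share that did not overlap was 41.7%, and the 8 ratios share genes with each other. Psmb8 to Psmb5, its constitutive counterpart, was 0.0841 and 0.0878 in wild type and 0.0767 and 0.0771 in knockout, lower in both knockout libraries by a small margin. Psmb9 to Psmb6 was 0.0706 and 0.0268 in wild type and 0.0637 and 0.0488 in knockout, with full overlap. In both pairs the transcript of the constitutive subunit was the more abundant in every library.

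Psmb10 to Psmb7 was 0.414 and 0.504 in wild type and 0.876 and 0.675 in knockout, so both knockout libraries were higher. The mean ratio in knockout was 1.69 times that in wild type. Psmb7 itself had 222 and 299 CPM in wild type and 174 and 164 CPM in knockout, or a fitted log2 fold change of -0.62 (SE 0.32, edgeR adjusted p = 0.634). Psmb10 had a log2 fold change of 0.12, as given above.

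Tap1 to Tap2 was 0.278 and 0.258 in wild type and 0.415 and 0.491 in knockout, again without overlap and 1.69 times higher on average. The groups also did not overlap for Tap1 to Psmb9, at 0.503 and 0.566 in wild type and 0.616 and 0.75 in knockout. H2-K1 to H2-D1 was 0.553 and 0.566 in wild type and 0.64 and 0.606 in knockout, apart as well and 1.11 times higher on average. H2-K1 to B2m was 0.122 and 0.139 in wild type and 0.13 and 0.0631 in knockout, and H2-D1 to B2m was 0.221, 0.245, 0.203 and 0.104 in the same order. Both knockout libraries were below wild type for H2-D1 to B2m, the groups overlapped for H2-K1 to B2m, and knockout replicate 2 had the lowest value of both ratios.

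**Figure D3:**
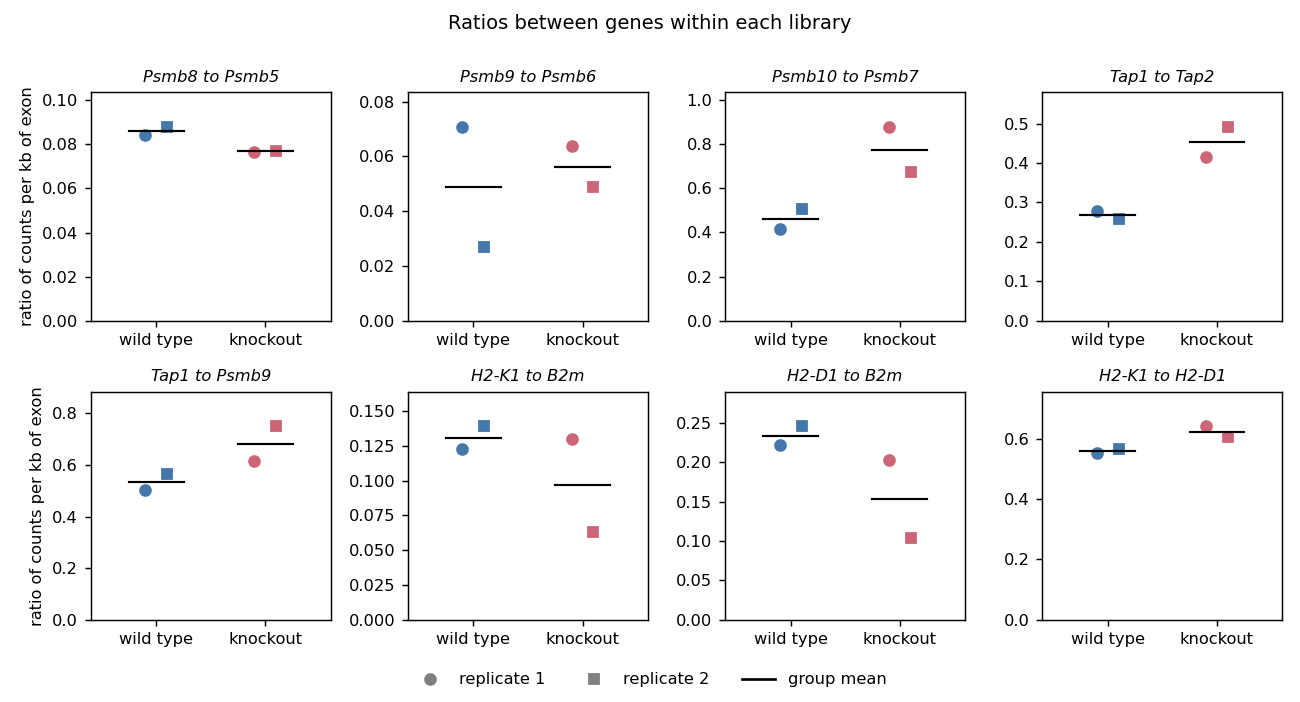
Each panel plots the ratio of counts per kilobase of exon between 2 genes, from 0, in the 4 libraries, with a line at the group mean. Groups are apart in 6 of the 8 ratios computed, among them Psmb10 to Psmb7 (0.414 and 0.504 against 0.876 and 0.675), beside 41.7% of all gene pairs, and overlap for Psmb9 to Psmb6 and H2-K1 to B2m.

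Other genes of the pathway also gave no call by edgeR, at 0 of 78 genes tested in 8 lists. Among 16 other class I and class I-like chains, 5 had a log2 fold change above 0 and 11 below (median -0.17, or -0.042 with wild type replicate 2 left out and -0.28 with knockout replicate 1 left out). Mr1, which presents vitamin metabolites to innate-like T cells, had 12.6 and 10.1 CPM in wild type and 4.32 and 4.79 CPM in knockout. Groups were apart, at a log2 fold change of -1.32 (SE 0.40, edgeR adjusted p = 0.547). Hfe, a class I-like protein that binds transferrin receptor 1 and B2m, had 36.2 and 55.3 CPM in wild type and 34.5 and 14.7 CPM in knockout. Like Tapbp, it was lowest in knockout replicate 2 (log2 fold change -0.89, SE 0.47, edgeR adjusted p = 0.636). Fcgrt, which encodes the heavy chain of FcRn, had 227 CPM in wild type replicate 2 and 71.2 to 89.9 CPM in the others, a log2 fold change of -0.75 (edgeR adjusted p = 0.7). Leaving out wild type replicate 1 gave -1.40, which passed (edgeR adjusted p = 0.0438), and leaving out replicate 2 of that group gave 0.31. H2-T10 and H2-T24 had log2 fold changes of 0.61 and 0.60.

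Constitutive proteasome genes had a log2 fold change below 0 in 12 of 14 cases, with a median of -0.29, while 49.6% of all genes were negative. In 9 of the 14 both knockout libraries lay below both wild type libraries, against 20.1% of all genes. Psmb1, a non-catalytic subunit of the inner ring, had 224 and 254 CPM in wild type and 147 and 130.2 CPM in knockout, or a fitted log2 fold change of -0.79 (SE 0.31, edgeR adjusted p = 0.591). Psmb4, Psma6 and Psma2 had log2 fold changes of -0.55, -0.52 and -0.41. The catalytic genes Psmb5 and Psmb6 had -0.12 and -0.11 and overlapped between groups. Psme1 and Psme2, the interferon-inducible activator subunits, had 66.2 and 26 CPM in wild type replicate 1 and 228 and 66.1 CPM in replicate 2. The knockout libraries lay between these, at 121 to 123 CPM for Psme1 and 43.1 to 44.7 CPM for Psme2. Psme3, Psme4 and the assembly factor gene Pomp had log2 fold changes of 0.26, 0.11 and -0.23.

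Of 7 other loading and trimming genes, 1 was above 0 and 6 below, with a median of -0.25 that was -0.036 without knockout replicate 2. Calr, Canx and Pdia3 encode calreticulin, calnexin and ERp57, which fold and hold class I chains. They had log2 fold changes of -0.18, -0.30 and -0.25. Erap1, the peptidase that trims fragments to fit, had -0.11, the tapasin relative Tapbpl -0.31, and the glycoprotein folding genes Uggt1 and Ganab -0.54 and 0.42.

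Regulators of class I genes had a median log2 fold change of 0.13, with 11 of 18 above 0. The median turned to -0.12 without wild type replicate 2 and was 0.41 without wild type replicate 1. Stat2, a factor of the type I interferon response, had 48.7 and 22.1 CPM in wild type and 91.3 and 89.8 CPM in knockout. Both knockout libraries were about level and well above wild type, at a log2 fold change of 1.35 (SE 0.42, edgeR adjusted p = 0.547). Leaving out wild type replicate 1 gave 2.00, which passed (edgeR adjusted p = 0.0221). Its partner Irf9 had 0.55, and Socs1, a feedback inhibitor of interferon signalling, 1.02 at under 6 CPM in every library. Irf1, an interferon-induced transcription factor chosen after its values were seen, had a log2 fold change of -0.20. Rfx5, the DNA-binding RFX subunit that works with Nlrc5, had 29.8 and 12.7 CPM in wild type and 30.1 and 32.8 CPM in knockout. It was low in the same library as Nlrc5, and its partner gene Rfxap had a log2 fold change of -0.47. Wild type replicate 2 was the lowest library for 13 of the 18 regulators and 4 of the 10 members, against 34.7% of all genes. That library also had the smallest mitochondrial share, 4.13%, and the part of this in the values was not tested.

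Transcripts of the interferon genes Ifng, Ifnb1, Ifnl2 and Ifnl3 were at the floor, and other interferon genes were not looked at here. Ifng had 2 counts in wild type replicate 1, 2 in knockout replicate 2 and 0 in the others, Ifnb1 had 2 counts in 1 library, and Ifnl2 and Ifnl3 had 0 in all 4. A count of 0 allows up to 0.163 to 0.195 CPM, by a floor of 3 counts per library. Of 5 receptor genes tested, 1 was above 0 and 4 below. Ifngr2, a subunit of the interferon-gamma receptor, had 76.8 and 64.5 CPM in wild type and 48.1 and 34.4 CPM in knockout, or a fitted log2 fold change of -0.77 (SE 0.32, edgeR adjusted p = 0.597). Ifngr1, Ifnar1 and Ifnar2 had log2 fold changes of -0.11, -0.16 and -0.36, and Ifnlr1 had 0.46.

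Lymphocyte receptors for class I were scarce. Cd8a, the coreceptor of cytotoxic T cells, had 2.83 and 0.975 CPM in wild type and 3.08 and 4.1 CPM in knockout, or a fitted log2 fold change of 0.91 (SE 0.66, edgeR adjusted p = 0.712). The natural killer receptor genes Klrd1 and Klrk1 had log2 fold changes of 1.11 and 0.89. Cd8b1, Klrc1 and the myeloid inhibitory receptor gene Pirb had 0.11, -0.081 and -0.44. For 5 of these 6 genes wild type replicate 2 was the lowest library, as for Nlrc5 and for 34.7% of all genes. Klrd1, Klrc1 and Klrk1 had only 6, 8 and 9 counts in that library.

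**Figure D4:**
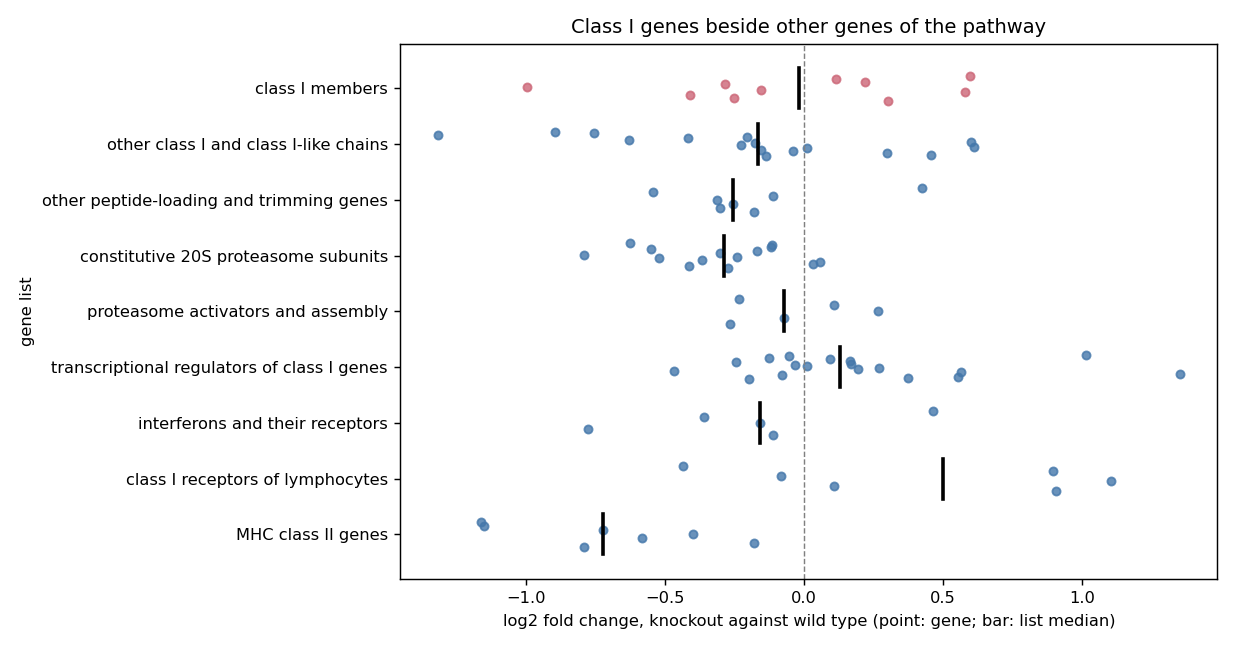
Points are log2 fold changes, knockout against wild type, of tested genes in the class I set and 8 further lists, and bars are list medians. The class I set is centred near 0 (median -0.019), the class II list has a median of -0.72 that falls in size to -0.15 without wild type replicate 1, and 0 genes passed edgeR's adjusted threshold.

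Class II genes gave a different set of values in the same libraries. All 7 had a log2 fold change below 0 (median -0.72), and 0 passed. Leaving out wild type replicate 1 brought that median to -0.15, and leaving out replicate 2 of the same group to -1.13. Leaving out knockout replicates 1 and 2 in turn gave -1.17 and -0.39. Cd74, the invariant chain, had 873 and 374 CPM in wild type and 344 and 217 CPM in knockout, with H2-Aa at a log2 fold change of -0.79. H2-Eb1, H2-Ab1, H2-DMa and H2-DMb1 had -0.58, -0.18, -0.40 and -0.72. Ciita had 296 counts in wild type replicate 1 and 17, 73 and 51 in the others (log2 fold change -1.16, SE 1.02). Wild type replicate 1 was the highest library for all 7 class II genes and for 1 of the 10 class I genes, against 23.2% of all genes. Whether the 2 sets differ was not tested.

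All 7 macrophage and 6 of 7 pan-leukocyte markers were lower in both knockout libraries, and by edgeR 0 of them passed the adjusted threshold. The summed level of 7 macrophage markers was 744 and 991 CPM in wild type and 405 and 259 CPM in knockout, with 7 of 7 genes below 0. Such separation downward was seen in 20.1% of all genes, and all 7 had an unadjusted p under 0.05, against 8.3%. DESeq2 called 2 of them, Csf1r (adjusted p = 0.0305) and C1qb (adjusted p = 0.0404), and 2 of 7 pan-leukocyte markers, Lcp1 (adjusted p = 0.0253) and Laptm5 (adjusted p = 0.0476), against 0.907% of all genes. Pan-leukocyte markers summed to 409.7 and 395 CPM in wild type and 216 and 139 CPM in knockout, with 6 of 7 below 0. The exception was Ptprc, which encodes CD45, at a log2 fold change of 0.30 with overlapping groups. It had 54.6 and 4.22 CPM in wild type and 36.5 and 36.1 CPM in knockout. For 5 endothelial markers the sums were 131 and 134 CPM against 95.9 and 73.3 CPM, with 4 of 5 below 0. Kupffer cell markers summed to 5.66 and 147 CPM in wild type and 8.76 and 18.9 CPM in knockout, and Clec4f and Timd4 were at 0 counts in some libraries. T cell markers summed to 22.8 and 9.42 CPM in wild type and 18.9 and 16.7 CPM in knockout, with 6 of 8 above 0. The other lists summed to 32.3 to 54.5 CPM in wild type and 25.5 to 30.3 CPM in knockout for 6 dendritic cell markers, and to under 10 CPM per library for natural killer and B cell markers. Fibroblast markers summed to 603 to 1315 CPM and bile duct markers to 38.9 to 61.4 CPM. Summed over the 10 class I genes the level was 2248 and 2584 CPM in wild type and 2262 and 2471 CPM in knockout, a sum that the 3 chains dominate. Its highest library was 1.15-fold above its lowest. Across the cell type lists this gap ran from 1.58-fold for bile duct to 26-fold for Kupffer cell markers, with 2.96-fold for the pan-leukocyte markers. By part of the class I set the gap was 1.16-fold for the summed chains and 1.35-fold for the summed immunoproteasome genes. It was 2.15-fold for the summed transport and loading genes and 3.11-fold for Nlrc5. The part of each cell type in single class I genes was not tested.

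Genes with a profile like the class I set were sought by root mean square distance over the 4 libraries, from the mean centred log2 CPM of the 10 members. Among 10702 named genes with at least 5 CPM the closest were Apmap, Tex30, Hspa14, Rnf128 and Thg1l, at distances of 0.0114 to 0.0224 on the log2 scale. Centring removes the level of each gene, so with 4 libraries and a flat mean profile this describes likeness of pattern to that mean only. Single members departed from the mean, as B2m was highest and Tapbp lowest in knockout replicate 2.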

How the data were processed

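Messenger RNA from 4 tumours, 2 per group, was sequenced, per the labels' protocols. The authors deposited raw counts per gene and FPKM for each library. The submitters' processing notes list the mm10 build with StringTie, HISAT2, edgeR and SAMtools 1.3.1, without their roles. In 97.7% of 16165 genes with at least 10 counts the length behind the deposited FPKM equalled, within 1%, the summed length of all distinct exons, so overlapping exons were counted repeatedly. Levels and ratios between genes were therefore computed not from FPKM, as planned, but from counts and exon unions of GENCODE M21. Symbols were missing for 346 identifiers.

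Counts were filtered with filterByExpr, scaled by TMM and tested with edgeR 4.0.16 (R 4.3.3), quasi-likelihood, two-sided, with Benjamini-Hochberg adjustment over 16310 genes and a threshold of 0.05. Log2 CPM used a prior count of 2. The alternatives were DESeq2 1.42.0, limma 3.58.1 (voom), other scalings and filters, a replicate block and leaving out each library. A fit without 1 library takes the spread of the lone sample from the other group.

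The members and lists were chosen with earlier results of these data known. The text names every member, all tested genes of a pathway list with 7 or fewer, the 5 with the smallest p of a longer list, and ratio partners. H2-Q10, Irf1, Ptprc, the markers called by DESeq2 and the genes named as overlapping or sharing windows were chosen after values were seen. Promoter sequences are from RefSeq, GRCm38.p6. Floors cover counting error only, since reads carry no molecular identifiers. Protein comparisons were not analysed here. Replicates are labelled as separate mice.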

Additional observations from a re-analysis of the deposited data

How the results depend on the processing

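No member of the class I set passed under any of the 12 alternatives, among them DESeq2, limma-voom, the replicate block, other scalings and each left-out library. The median log2 fold change of the set was -0.019 and lay between -0.061 and 0.0031 under the alternatives that keep all libraries. With libraries left out it ranged from -0.24, without knockout replicate 1, to -0.032, without knockout replicate 2. Over all genes, DESeq2 called 63 higher and 85 lower, limma-voom 1 lower, and library totals 1 lower. Replicate numbers are shared between the groups, but the labels tie them to no litter, batch or day. The wild type and knockout differences between replicates 1 and 2 correlated at 0.121 over genes, and with the replicate block 2 genes were called higher and 2 lower. With 1 library left out, 0 to 209 genes were called higher and 0 to 200 lower, both upper counts without wild type replicate 1. In that fit 2 genes of the pathway lists passed, Fcgrt and Stat2, against 0 in the fits without any other library. Ratios between genes were the same in relative terms from FPKM, raw counts and counts per exon length, the last chosen after seeing the data.

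Directions that turned with a left-out library gave these log2 fold changes over the 4 such fits. In the class I set they were B2m from -0.044 to 0.55, Tap2 from -0.40 to 0.11, Psmb8 from -0.57 to 0.013, Psmb9 from -0.13 to 0.66 and Psmb10 from -0.23 to 0.52. In the pathway lists they were Psmb5 from -0.38 to 0.14, Psmb6 from -0.41 to 0.20, Fcgrt from -1.40 to 0.31, Canx from -0.73 to 0.013, Tapbpl from -0.82 to 0.048, Erap1 from -0.30 to 0.076, Psme1 from -0.93 to 0.89, Psme2 from -0.63 to 0.75, Psme4 from -0.18 to 0.33, Ifngr1 from -0.55 to 0.48, Ifnar1 from -0.53 to 0.27, Ifnar2 from -0.72 to 0.052, Cd8b1 from -0.29 to 0.65, Klrc1 from -0.43 to 0.36, H2-Ab1 from -0.64 to 0.19, H2-DMa from -0.99 to 0.033, Ciita from -2.06 to 1.76 and Irf1 from -0.60 to 0.34. Psme2 also turned, to 0.091 by limma-voom and 0.079 with the replicate block. Medians of some pathway lists turned as well. That of the regulators was -0.12 without wild type replicate 2. The interferon receptors gave 0.052 with that library left out too, and 0.098 with knockout replicate 1 left out. For the proteasome activators the median was 0.24 without wild type replicate 2, 0.091 by limma-voom and 0.079 with the replicate block. Of the lymphocyte receptors only Pirb was left at a filter of 5 CPM, so the -0.41 found there is the value of a single gene. At a filter of 5 CPM, H2-T10, H2-T24, Socs1, Ifnlr1, Cd8a, Cd8b1, Klrd1, Klrc1 and Klrk1 gave no value. Other scalings moved the median of all genes by -0.018 to -0.029 on the log2 scale. The fewest counts of any member in a library were 160, for Tap1 in wild type replicate 2.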
